A study of Mus musculus with 8 samples.

Results

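The values described here are those of 4 serum miRNAs, mmu-miR-126a-3p, mmu-miR-126a-5p, mmu-miR-221-3p and mmu-miR-222-3p (miR-126a-3p and so on in the text), of the 1881 mouse miRNAs on the array. They were chosen by name, as both arms of miR-126 and the 3p arms of the pair miR-221 and miR-222, and all 4 had probes on the array. Sera of male C57BL/6NJcl mice, 8 weeks old at irradiation, were compared in 2 groups, non-irradiated (0 Gy) and whole-body irradiated with 7 Gy of X-rays at 1 Gy/min. Each group had 4 sera and each serum 1 array, with 30 ng of RNA labelled with the dye Cy3. Irradiated sera were collected 72 h after exposure, whereas no time is named for the non-irradiated ones. Nothing in the labels says whether a serum came from 1 mouse or a pool, so that p-values measure the spread between these sera.

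miR-126 is made from an intron of Egfl7, a gene of endothelial cells, the cells that line blood vessels. It is known for supporting angiogenic signalling by repressing Spred1, an inhibitor of growth factor signalling, and it is also expressed in haematopoietic stem and progenitor cells. miR-221 and miR-222 are neighbours on the X chromosome and share a seed, the bases that pair with target mRNAs. They are known for repressing Kit, the receptor of stem cell factor, and the cell cycle inhibitor Cdkn1b, in endothelial and blood precursor cells.

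The mature sequences of 3 of the 4 members are shown because the shared seed groups miR-221-3p with miR-222-3p and sets miR-126a-3p apart. They are from RefSeq, with positions in GRCm38.p6, written from 5′ to 3′ with the seed (bases 2 to 8) in capitals. miR-126a-3p lies at chr2:26591402-26591423 on the plus strand, miR-221-3p at chrX:19146307-19146329 and miR-222-3p at chrX:19146901-19146923, both on the minus strand.
miR-126a-3p: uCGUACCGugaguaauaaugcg
miR-221-3p: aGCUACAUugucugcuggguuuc
miR-222-3p: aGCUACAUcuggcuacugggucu
The first 8 bases of miR-221-3p and miR-222-3p were identical, so that the pair differ only outside the seed. Without gaps 11 of their 23 positions were identical, and no alignment with gaps was made. Their hairpins lie 504 bases apart, and no annotated gene spans both. The Mir126a hairpin lies within Egfl7, and that of Mir126b lies inside it on the opposite strand. miR-1928, the other miRNA in the table with the seed of miR-221-3p, was detected on 0 of 8 arrays. The second arms miR-221-5p and miR-222-5p and the opposite-strand miR-126b-3p and miR-126b-5p were also detected on 0 of 8 arrays.

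The array software called between 378 and 687 miRNAs detected per array. Before any scaling, the 90th percentile of the signals was 33.4 to 91.2 at 0 Gy. It was 8.21 and 7.68 for 7 Gy replicates 1 and 3 but 93.9 and 47.1 for replicates 2 and 4. The labelling spike-ins, control RNAs labelled together with the sample, had a log10 signal of 2.73 to 3.68 at 0 Gy. Among the irradiated arrays 7 Gy replicate 2 reached 3.35, whereas 7 Gy replicates 1, 3 and 4 had 2.31, 1.95 and 1.97, which the software placed out of range. The groups lay in different columns of the slide, and effects of column and dose cannot be told apart, but each row of the slide held both groups.

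miR-222-3p was the member detected on all 8 arrays, and its deposited signal was lower on every irradiated array than on every non-irradiated array. Its deposited signal, in array units and not normalised between arrays, was 901, 1101, 839 and 736 on 0 Gy replicates 1 to 4. On 7 Gy replicates 1 to 4 it was 70.9, 314, 32.2 and 164. The highest irradiated signal thus lay under the lowest non-irradiated one, and the 0 Gy sera lay close together while the 7 Gy sera spread widely. On this scale 7 Gy replicates 1 and 3 were dim as whole arrays, with a 90th percentile of 8.21 and 7.68 against 33.4 to 91.2 at 0 Gy. The share of all miRNAs without overlap was counted only after scaling.

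With all arrays brought to the same 90th percentile, miR-222-3p had signals of 351, 497, 892 and 684 in the non-irradiated sera and of 307, 119, 149 and 124 in the irradiated sera. The groups still did not overlap, although 7 Gy replicate 1 came close to 0 Gy replicate 1. Non-irradiated sera averaged 606 ± 234 (SD, n = 4) and irradiated sera 175 ± 89.2 (SD, n = 4), and in serum fewer releasing cells and less miRNA per cell cannot be told apart. The log2 fold change was −1.83 (standard error 0.40), with an adjusted p of 0.0522 from limma over the 208 miRNAs tested. The two-sided exact permutation test gave p = 0.0286, the smallest that the 70 arrangements of 4 against 4 arrays allow. After adjustment over the 4 members this permutation p was 0.114. miR-222-3p was among the miRNAs that the study picked from these same arrays, so that its direction here is not independent evidence.

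Of the 3 members tested, 0 passed at an adjusted p under 0.05, against 1.92% of all tested miRNAs that were called lower, and 1 (miR-222-3p) had an unadjusted limma p under 0.05, against 7.69% of all tested miRNAs that were lower at that p. Non-overlap with every 7 Gy array below every 0 Gy array was found in 1 of the 3, against 5.29% of the 208. The adjusted p of miR-222-3p lay near the threshold, and whether it passed changed with the setting. It ranged from 0.0023, with scaling to the 75th percentile of those miRNAs that every array detected, to 0.965, with scaling to the labelling spike-ins. With that last scaling the log2 fold change was −0.062, so that no lower group mean was seen relative to the spike-ins. This value includes 7 Gy replicates 1, 3 and 4, whose spike-in signal the software had flagged. The irradiated array without a flag, 7 Gy replicate 2, had a log10 spike-in signal of 3.35. That lay near the 3.37 of 0 Gy replicate 4. On these arrays, in that order, the deposited signal of miR-222-3p was 314 against 736. The other members went the other way, with 1052 against 68.3 for miR-126a-3p, 117 against 25.7 for miR-221-3p and 44.4 against 5.76 for miR-126a-5p. The 90th percentile of all signals was 93.9 against 38.3, and the part of labelling in these values was not tested. With the 90th percentile scaling, dropping 7 Gy replicate 1 moved the log2 fold change to −2.14 (adjusted p = 0.0410 from limma). Dropping 7 Gy replicate 2 instead gave a smaller change, −1.68, with a wider standard error (0.44) than the 0.40 with all arrays. Its adjusted p in limma still fell to 0.0291. In that setting 56 miRNAs were called higher and 14 lower, against 4 and 4 with all arrays. That pass is therefore no stronger evidence for miR-222-3p. Within slide row 1 the log2 fold change of miR-222-3p was −1.13 and within slide row 2 it was −2.52.

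**Figure D1:**
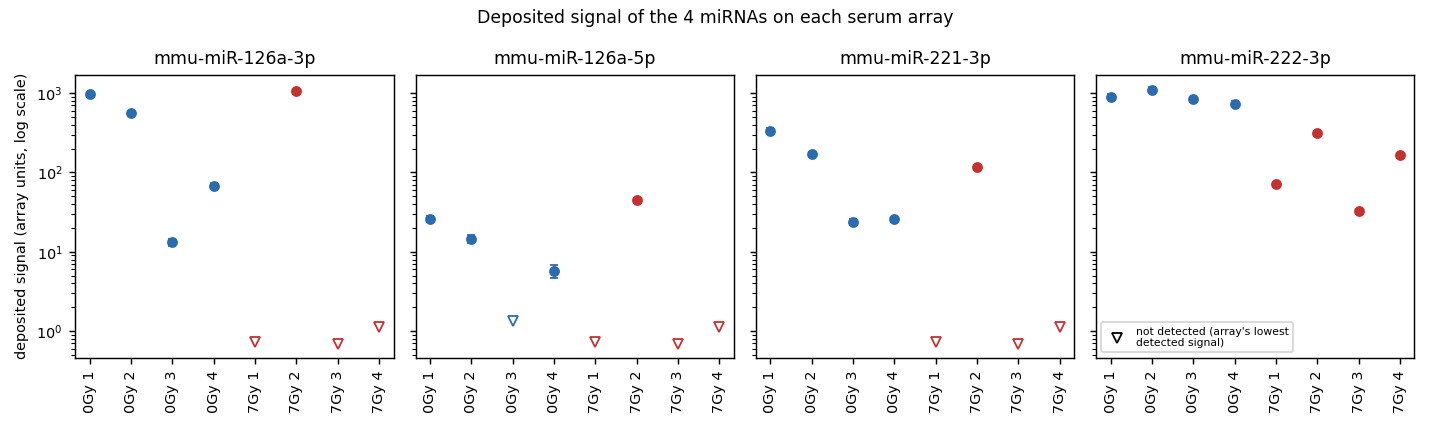
Deposited signal of each miRNA (y axis, array units, log scale) on the 4 non-irradiated (blue) and 4 irradiated (red) arrays, with the error that the array software gives as bars. Open triangles are arrays without detection, drawn at the lowest detected signal of that array. miR-222-3p was detected on all arrays, and on 7 Gy replicates 1, 3 and 4 it was the one detected member.

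miR-126a-3p, the arm that represses Spred1, was detected on all 4 non-irradiated arrays and on 1 irradiated array. Its deposited signal was 968, 562, 13.2 and 68.3 on 0 Gy replicates 1 to 4 and 1052 on 7 Gy replicate 2. It was not called detected on 7 Gy replicates 1, 3 and 4. The groups overlapped, since the brightest array of all was an irradiated one, and the 0 Gy sera themselves spanned a wide range.

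Scaled, the signal of miR-126a-3p was 378, 254, 14.1 and 63.5 at 0 Gy and 398 on 7 Gy replicate 2. With signals under 100 set to 100, as the study's cut-off was read, limma gave −0.32 for the log2 fold change (standard error 0.64, adjusted p = 0.721). That floor held 2 of the 4 non-irradiated and 3 of the 4 irradiated arrays, so that this value says little of the sizes below it. With the floor lowered to 3.17, the highest of the arrays' scaled lowest detected signals, limma gave −3.18 (standard error 1.78, adjusted p = 0.287), and the exact permutation test, two-sided, gave p = 0.229. The lower floor was chosen after seeing that 3 members lay at or near 100.

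miR-221-3p, the partner of miR-222-3p, was detected on the same 5 arrays as miR-126a-3p. Its deposited signal was 334, 170, 23.9 and 25.7 on 0 Gy replicates 1 to 4 and 117 on 7 Gy replicate 2. The irradiated array with a signal lay between 0 Gy replicates 2 and 4, and the other 3 irradiated arrays had no detected signal.

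Scaled, the signal of miR-221-3p was 130, 76.8, 25.5 and 23.9 at 0 Gy and 44.4 on 7 Gy replicate 2. With the floor of 100 only 0 Gy replicate 1 stood above it, and limma gave −0.096 for the log2 fold change (standard error 0.12, adjusted p = 0.616). With the detection floor limma gave −3.02 (standard error 0.9997, adjusted p = 0.108), and the exact permutation test gave p = 0.0857. Neither test was passed, and the size of the value rests on where undetected signals are placed.

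miR-126a-5p, the second arm of the miR-126 hairpin, was the dimmest member. Its deposited signal reached 25.9, 14.6 and 5.76 on 0 Gy replicates 1, 2 and 4, compared with 44.4 on 7 Gy replicate 2, and it was not detected on the other 4 arrays. The highest value again belonged to 7 Gy replicate 2. Its scaled signal reached 16.8 at most, so that it lay at the floor of 100 on all 8 arrays and was not tested there. With the detection floor limma gave −0.27 (standard error 0.64, adjusted p = 0.772), and the exact permutation test gave p = 0.657.

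With the detection floor 616 miRNAs were tested, of which 0.974% were called lower, and 0 of the 4 members were called. At an unadjusted limma p under 0.05 there were 2, miR-221-3p and miR-222-3p, against 10.4% of the 616 that were lower at that p. Without 7 Gy replicate 2, also chosen after seeing the data, 3 of the 4 were lower. In limma miR-126a-3p then had −4.92 (adjusted p = 0.0082), miR-221-3p −3.97 (adjusted p = 0.0033), miR-222-3p −1.68 (adjusted p = 0.0293) and miR-126a-5p −0.87 (adjusted p = 0.146). A single irradiated serum therefore decided these 2 results for miR-126a-3p and miR-221-3p. In that setting 78 of 572 miRNAs (13.6%) were called lower and 127 higher.

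**Figure D2:**
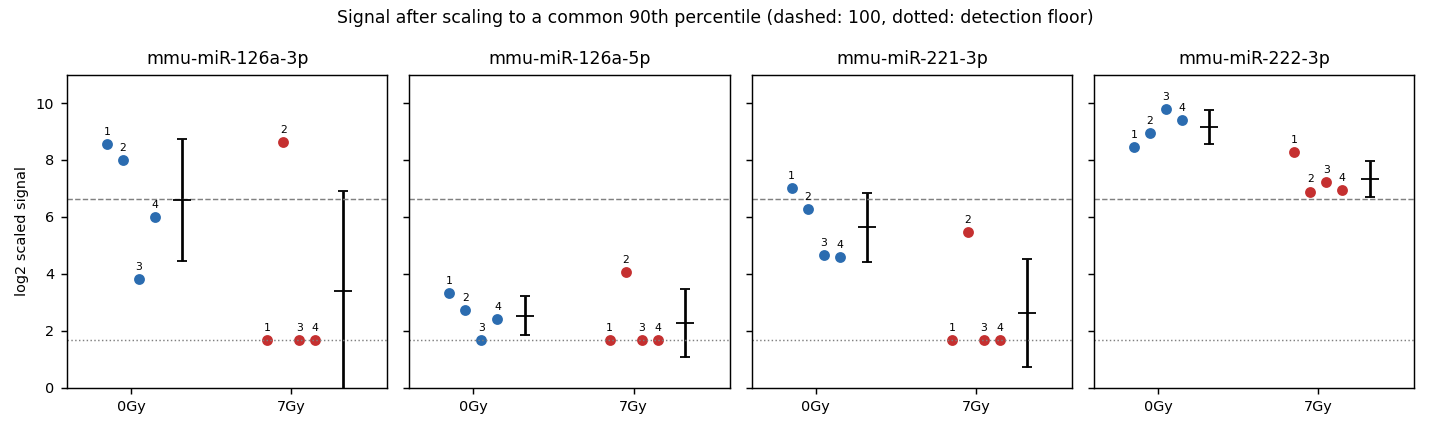
Signal scaled to a common 90th percentile (y axis, log2), with signals under the detection floor (dotted line) set to it; the dashed line is the floor of 100. Numbers beside the points are replicate numbers, and black bars are the mean ± SD (n = 4 per group). The groups do not overlap for miR-222-3p, and 7 Gy replicate 2 stands apart from the other irradiated sera for the other 3 miRNAs.

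Loss of detection on 7 Gy replicates 1, 3 and 4 was shared with other miRNAs. Of 445 miRNAs detected in all non-irradiated sera, 56 (12.6%) were found in a single irradiated serum, that of 7 Gy replicate 2. Of the 3 members detected on every 0 Gy array, miR-126a-3p and miR-221-3p were 2 such miRNAs and miR-222-3p was not. The arrays without detection were the 3 with labelling spike-ins out of range, and the part of labelling in the loss was not tested.

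Settings that take labelling into account in different ways gave different values for the members. When the spike-in signal entered the fit as a covariate, limma gave a log2 difference of −2.30 for miR-222-3p (adjusted p = 0.163) and of 1.105 for miR-126a-3p (adjusted p = 0.323), while miR-221-3p had −0.023. On the arrays with spike-ins in range, which leave 7 Gy replicate 2 as the lone irradiated array, it was −2.27 for miR-222-3p and 1.18 for miR-126a-3p. That fit assumes that the lone array varies as the others do. With scaling to the labelling spike-ins, in contrast, miR-222-3p had −0.062 (adjusted p = 0.965 from limma) and miR-126a-3p 0.18 (adjusted p = 0.751 from limma), close to each other and to 0. miR-222-3p thus lay well below 0 in some of these settings and near 0 in another. miR-126a-3p lay above 0 in each of them, and neither miRNA passed a test in any.

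The spots behind these values were measured closely. Each member had 2 probes with 15 spots each, and where a member was detected all 30 spots stood well above background, except for miR-126a-5p on 0 Gy replicate 4, where 9 of 30 did. Where a member was not detected, 0 of 30 did. The coefficient of variation over the spots of a probe was 2.05% to 6.34% for miR-222-3p, 2.35% to 9.67% for miR-126a-3p, 2.89% to 15.9% for miR-221-3p and 6.65% to 32.6% for miR-126a-5p, on the arrays with detection. The brighter probe exceeded the dimmer by 1.18 to 1.41 times for miR-222-3p and by 1.27 to 2.49 times for miR-126a-5p, and in every member the same probe was the brighter on all arrays with detection. The spread between sera was far wider than that between spots.

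**Figure D3:**
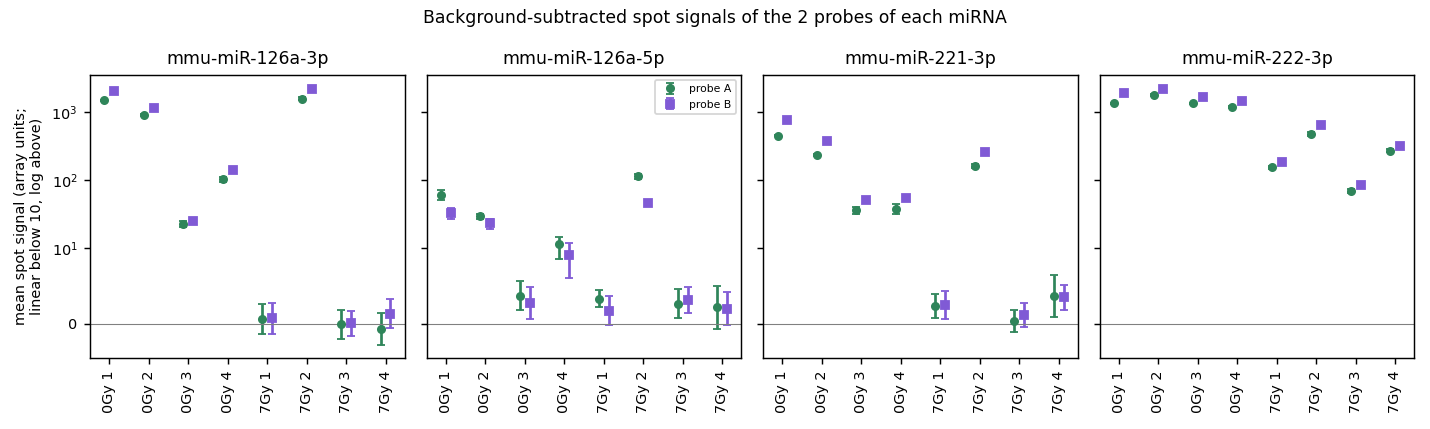
Mean background-subtracted signal of the 15 spots of each probe (y axis, array units, linear below 10 and log above), with SD over spots as bars, for the 2 probes of each miRNA on the 8 arrays. Both probes of a miRNA rise and fall together across arrays, and signals of undetected miRNAs lie at 3.67 or less.

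Ratios within an array need no scaling between arrays, but different probes respond differently, so that a ratio is read only against the same ratio on another array. The ratio of miR-222-3p to its seed partner miR-221-3p was 2.70, 6.47, 35.0 and 28.6 on 0 Gy replicates 1 to 4 and 2.68 on 7 Gy replicate 2. On 7 Gy replicates 1, 3 and 4, where miR-221-3p was not detected, it was at least 69.7, 47.0 and 81.5. The irradiated arrays thus lay at both ends of the order, with 7 Gy replicate 2 next to 0 Gy replicate 1 and the other 3 above all non-irradiated arrays.

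The ratio of miR-222-3p to miR-126a-3p was 0.931, 1.96, 63.3 and 10.8 on the 0 Gy arrays and 0.298 on 7 Gy replicate 2. It was at least 97.7, 47.0 and 147 on 7 Gy replicates 1, 3 and 4. On 7 Gy replicate 2 the ratio lay below all 4 non-irradiated arrays, and the other irradiated bounds lay above 3 of them or all 4. The ratio of miR-126a-5p to miR-126a-3p, the arms of 1 hairpin, came to 0.0268, 0.0259 and 0.0843 on 0 Gy replicates 1, 2 and 4, compared with 0.0422 on 7 Gy replicate 2. The irradiated array lay within the non-irradiated range. With 1 irradiated array per measured ratio no test could pass. Over 6 pairs of members the two-sided exact permutation p was 0.4 to 1 (0.6 to 1 after adjustment over the pairs). The smallest possible was 0.5 for the pairs with miR-126a-5p and 0.4 for the others.

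**Figure D4:**
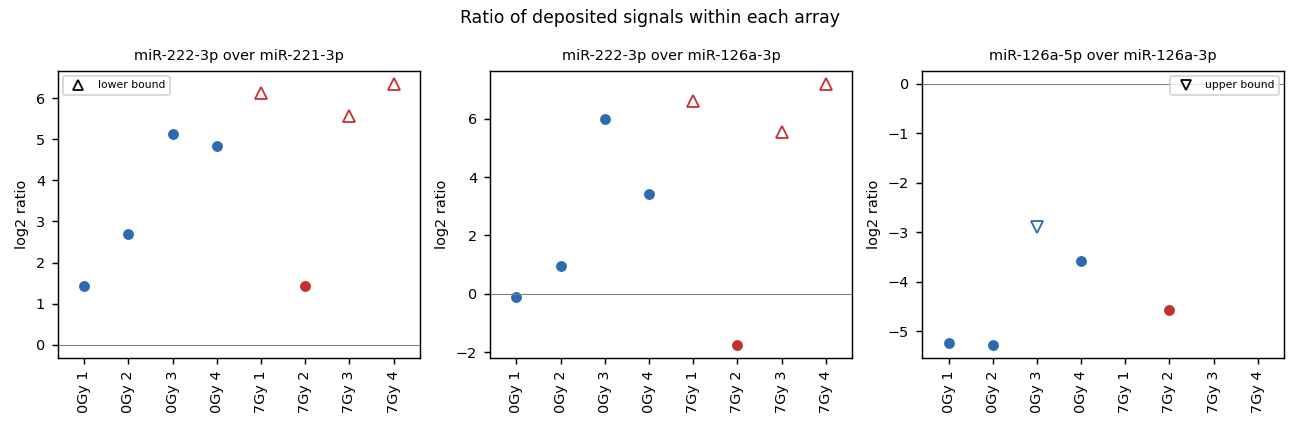
Ratio of the deposited signals of a pair of miRNAs on each array (y axis, log2), with 0 Gy arrays in blue and 7 Gy arrays in red. Open triangles are bounds for arrays where 1 of the pair was not detected, and gaps are arrays where neither was. 7 Gy replicate 2 has the lowest ratio of miR-222-3p to miR-126a-3p, while the bounds on the other irradiated arrays lie high.

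The miRNAs whose pattern over the 8 arrays was most like that of miR-222-3p were miR-425-5p, miR-5622-3p and miR-342-3p, with a mean absolute difference of 0.54, 0.63 and 0.72 on the log2 scale after centring, against a median of 1.36 over 89 miRNAs. With the detection floor, chosen after seeing the data, likeness could be read for the dimmer members among 499 miRNAs. The nearest to miR-222-3p were then different ones, miR-1843a-5p (0.37), miR-181b-5p (0.41) and miR-324-3p (0.45). miR-126a-3p was then most like miR-140-5p (0.59), miR-130a-3p (0.59) and miR-192-5p (0.61), and miR-221-3p most like miR-146a-5p (0.26), miR-331-3p (0.35) and miR-103-3p (0.39). In likeness to miR-221-3p, miR-126a-3p stood at rank 48 of 499 and miR-222-3p at rank 100. Seen from the other side, miR-221-3p stood at rank 401 in likeness to miR-222-3p (median difference 1.40). In likeness to miR-126a-3p it stood at rank 22 (median difference 3.28). Both miR-221-3p and miR-126a-3p lay at the detection floor on 7 Gy replicates 1, 3 and 4, which makes them alike there. The pattern of miR-221-3p across these sera was thus closer to that of miR-126a-3p than to that of its seed partner by this measure, 1.09 against 1.70.

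Other miRNAs known from endothelial cells and angiogenesis were not called in either direction. Of 16 listed, 9 were tested, and their median log2 fold change was −0.31, against 0.17 over all 208. All 16 were tested with the detection floor and 0 called, with 14 below 0 and a median of −1.36, against 0.43 over all 616. Of the 4 brightest, miR-92a-3p, known for restraining vessel growth, had −2.90 (adjusted p = 0.0510 from limma), miR-130a-3p −0.66, miR-23a-3p −0.31 and miR-24-3p 1.44. Of 12 miRNAs of haematopoietic progenitors 5 were tested and 0 called, with a median of −0.66, and with the detection floor 10 were tested, all below 0, with a median of −2.12. Among them miR-29a-3p had −2.09, miR-125b-5p −1.88 and miR-181a-5p −0.32, the last of which was lower with the detection floor (−4.01, adjusted p = 0.0391 from limma).

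Markers of other blood and tissue cells were read beside the members. Of the erythrocyte list 5 of 6 were tested and 0 called, with a median of −1.34, and its summed scaled signal was 16485 to 82115 at 0 Gy and 7322 to 25821 at 7 Gy. Its median was −4.74 over 5 tested with the detection floor, where 0 were called. Its markers miR-451a (log2 fold change −5.34, not past the test) and miR-486a-5p (−0.46) were detected on all 8 arrays. Its other members miR-16-5p, miR-15a-5p and miR-144-3p were detected on 4 non-irradiated arrays and 1 irradiated array, and miR-144-5p on 2 and 0. For platelets 6 of 8 were tested, with a median of −1.003 (−2.03 over 7 tested with the detection floor) and a summed signal of 6970 to 14822 against 5450 to 10822, and 0 were called on either scale. For leukocytes 5 of 6 were tested and 0 called, with a median of −0.62 and a summed signal of 391 to 2040 against 113 to 492. Their median was −2.87 over 6 tested with the detection floor, where miR-142a-5p was lower (−3.71, adjusted p = 0.0391 from limma). Of the leukocyte list miR-342-3p and miR-223-3p were detected on all 8 arrays, miR-150-5p, miR-142a-3p and miR-142a-5p on 4 non-irradiated arrays and 1 irradiated array, and miR-155-5p on 3 and 0. The hepatocyte miRNA miR-122-5p was detected on 4 and 1, its log2 fold change was 0.0068 with the floor of 100 and −2.65 with the detection floor, neither past the test, and the summed signal of its list was 5.26 to 442 against 0 to 807. The muscle list had a median of −0.37 over 3 of 6 tested (−0.67 over 6 with the detection floor) and 0 called on either scale, with summed signals of 603 to 3368 against 541 to 2406. The summed signal of the 4 members was 776 to 932 at 0 Gy and 124 to 578 at 7 Gy. The part of these other cells in the members' values was not tested.

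**Figure D5:**
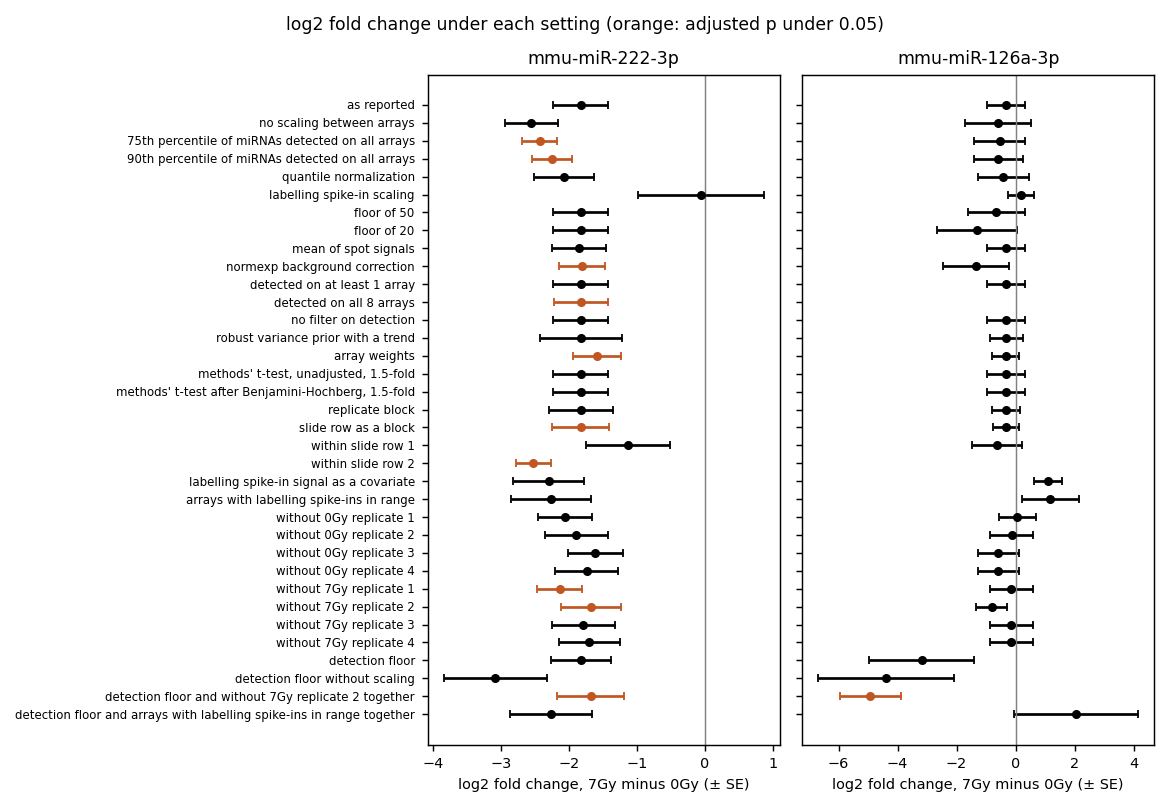
log2 fold change, 7 Gy minus 0 Gy (x axis, ± standard error), of miR-222-3p and miR-126a-3p under each setting (rows); a setting without a point is one in which the miRNA was not tested. miR-222-3p lies below 0 in all settings shown and close to 0 with labelling spike-in scaling, and miR-126a-3p lies on both sides of 0.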

How the data were processed

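RNA of 4 non-irradiated and 4 irradiated mouse sera was hybridised by the authors to 1-colour Agilent mouse miRNA arrays. The deposited intensity values are from Agilent Feature Extraction (version 11.5 in the submitters' processing notes), which subtracted background, combined the probes of a miRNA and wrote 0.1 where it was not detected, with no normalization between arrays. The deposited detection flags, coded 0 or 1, were used as given. No spot was saturated.

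Signals were scaled to a common 90th percentile over 1881 miRNAs, as in the study's methods, with their cut-off of 100 taken as a floor, and converted to log2. miRNAs detected on at least 3 arrays and not at the floor on all 8 were tested (208), with limma 3.58.1 in R 4.3.3 and Benjamini-Hochberg adjustment. Single values and ratios were compared by exact permutation tests. The number of arrays limits the precision. The test was checked on 20 simulated data sets. These held only miRNAs detected on all 8 arrays and no floor of 100, so that the check does not cover members with undetected signals. Alternatives changed the scaling, floor, background correction, filter, variance model, blocks and arrays used.

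The members, lists and the rule for named miRNAs (the members, partner arms, the brightest 4 tested of each list, the 3 most alike in pattern and those sharing a seed) were chosen with earlier results of these data known. Mature sequences came from RefSeq, where 3 of 4 members matched. Python 3.11.15 with matplotlib 3.10.9 drew the figures.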

Additional observations from a re-analysis of the deposited data

Results flagged for a closer look

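The scaled signal of miR-126a-3p was 398 on 7 Gy replicate 2, while the other 3 irradiated arrays lay at the floor of 100, so that this array stood far from the rest of its group. The scaled signal of miR-221-3p was 130 on 0 Gy replicate 1, while the other 3 non-irradiated arrays lay at that floor. In both groups 3 values were tied at the floor, so that the outlier ratio was 1 whatever the size of the remaining value. The floor thus fixed both ratios, and these alone are no evidence of an unusual array. Without the floor the other 3 non-irradiated signals of miR-221-3p were 76.8, 25.5 and 23.9. miR-126a-3p, in contrast, was not detected on the other 3 irradiated arrays, so that 7 Gy replicate 2 stood apart for it without the floor too.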

How the results depend on the processing

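miR-222-3p kept a log2 fold change below 0 under every alternative run. It passed at −2.43 and −2.26 with the 75th and 90th percentiles of miRNAs detected on all arrays, −1.81 with normexp, −1.83 with the filter of detection on all 8 arrays, the slide row as a block and the methods' unadjusted t-test, −1.59 with array weights, −2.52 within slide row 2 and −1.68 with the detection floor without 7 Gy replicate 2. Leaving out 1 array gave −2.14 to −1.61. miR-126a-3p turned to 0.18 with labelling spike-in scaling, 1.105 with the spike-in covariate, 1.18 on the in-range arrays and 2.05 with the detection floor as well (miR-126a-5p 1.54), and leaving out 1 array gave −0.82 to 0.050. With the detection floor without 7 Gy replicate 2, miR-126a-3p (−4.92) and miR-221-3p (−3.97) passed. The difference in the ratio of miR-126a-5p to miR-126a-3p, 0.12, turned to −0.80 with normexp, and leaving out 1 array gave −0.17 to 0.68. The cause of these changes was not tested.

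Of all miRNAs 4 were called higher and 4 lower. The counts were 7 and 11 with the 75th percentile, 6 and 1 with the 90th percentile of detected miRNAs, 2 and 4 with quantile normalization, 2 and 3 with a floor of 50, 3 and 7 with a floor of 20, 1 and 2 with mean spot signals, 13 and 19 with normexp, 0 and 4 with a robust prior, 61 and 14 with array weights, 34 and 14 with the methods' unadjusted t-test and 1 and 1 after adjustment, 18 and 8 with the slide row as a block, 18 and 10 within row 2, 1 and 0 on the in-range arrays (with either floor), 2 and 6 with the detection floor and 127 and 78 with it without 7 Gy replicate 2. They were 0 and 0 in limma without scaling (1 and 17 at an unadjusted p under 0.05), with spike-in scaling (26 and 3), within row 1 (5 and 18), with the covariate (12 and 21) and with the detection floor without scaling (6 and 78). Leaving out 1 array gave 0 to 56 higher and 1 to 14 lower. Of the members 0 were called, 1 where miR-222-3p passed and 3 with the detection floor without 7 Gy replicate 2, and leaving out 1 array gave 0 to 1.

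With the replicate number as a block, miR-222-3p had −1.83 (adjusted p = 0.111 from limma), and 0 miRNAs were higher and 0 lower (47 and 18 at an unadjusted p under 0.05). The deviations of same-numbered arrays correlated at −0.34, 0.43, 0.55 and 0.42. Of the 0 Gy arrays, replicates 2, 3 and 4 correlated best with their own number, and replicate 1 with 7 Gy replicate 2 (0.71). Of the 7 Gy arrays, replicate 3 alone correlated best with its own number. Whether the numbers pair the sera cannot be told from these values. The median of all tested log2 fold changes was 0.17, −0.12 with the 75th percentile and 0.50 with spike-in scaling. Signals under the detection limit of an array have no order, which limits the 3 dimmer members.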
